A study of Mus musculus with 16 samples.

Results

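The RANK ligand system consists of 3 genes in the mouse: Tnfsf11, which encodes RANK ligand, Tnfrsf11a, which encodes its receptor RANK, and Tnfrsf11b, which encodes osteoprotegerin, a soluble decoy receptor for the ligand. They were examined together with Spp1, which encodes osteopontin, a secreted matrix protein and cytokine, in RNA-seq libraries of ear skin. The members were taken by gene symbol, 4 of the 19439 genes listed in at least 1 library, and all 4 were among the 15782 genes with enough counts to be tested. They were selected after earlier results on these libraries had shown Tnfsf11 and Spp1 among the genes that were higher with lysophosphatidylcholine at day 7. Their values in that comparison, and in the comparisons that reuse its libraries, are therefore descriptions without a test, and only day 4 was tested for them.

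The skin came from 16 BALB/c mice aged 8 weeks, all of which had imiquimod (IMQ) applied to the ear, an immune-activating drug that produces psoriasis-like inflammation in mouse skin. During that treatment they received intradermal injections of 10 µl of lysophosphatidylcholine (LPC, 10 mM), a phospholipid with a single fatty acid chain, or 10 µl of normal saline as vehicle, planned daily for 6 days. Of each treatment, 4 mice were killed on day 4 and 4 others on day 7, which makes 4 groups of 4 separate mice with 1 library per mouse. Skin without imiquimod was not analysed here, so every level belongs to inflamed skin. Total expected counts (reads assigned to genes by the RSEM program, with shared reads divided among genes) ran from 18704197 to 20131513 per library. The 8 keratinocyte markers, among them Krt5 and Krt14, were present in all 16 libraries, with a summed level of 17039 to 46691 CPM (counts scaled to a common library total). The 10 skeletal muscle markers ran from 247 to 36320 CPM, so the libraries differed in their content of muscle RNA.

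RANK ligand is a membrane-bound or shed member of the tumour necrosis factor (TNF) superfamily. By binding RANK on myeloid precursors it drives their maturation into osteoclasts, the cells that resorb bone, through TRAF6, NF-kB and the transcription factor NFATc1, and osteoprotegerin blocks this by capturing the ligand. Outside bone the ligand is made by lymphocytes, stromal cells and keratinocytes and acts on dendritic cells and other myeloid cells. In skin, RANK is found on Langerhans cells. Osteopontin is made by bone cells, macrophages, activated T cells and some epithelia, and it binds integrins and CD44.

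The sequences before the transcription starts of the ligand and of osteopontin are shown because these 2 genes carried the largest differences. Promoters of 3 of the 4 members were present in the RefSeq table for GRCm38.p6, and Tnfrsf11b was not among them. Each line is the 250 bases before the start, 5′ to 3′ on the strand of the gene. Capitals mark a TATA box match (TATAAA, or TTTATA where it lies on the opposite strand) and a RUNX match (TGTGGT, or ACCACA on the opposite strand). The Tnfsf11 window is chr14:78308044-78308293 (minus strand) and the Spp1 window, at the upstream of its 2 listed starts, is chr5:104434861-104435110 (plus strand).
Tnfsf11: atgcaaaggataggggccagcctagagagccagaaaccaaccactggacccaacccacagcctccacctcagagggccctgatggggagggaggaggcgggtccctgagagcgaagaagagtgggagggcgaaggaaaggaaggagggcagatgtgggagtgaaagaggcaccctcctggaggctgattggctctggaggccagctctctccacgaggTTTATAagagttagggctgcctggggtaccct
Spp1: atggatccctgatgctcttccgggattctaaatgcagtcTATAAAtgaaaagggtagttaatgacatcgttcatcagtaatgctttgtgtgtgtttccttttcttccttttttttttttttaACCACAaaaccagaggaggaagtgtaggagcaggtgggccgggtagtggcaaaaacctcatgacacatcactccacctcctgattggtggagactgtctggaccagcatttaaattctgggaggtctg
In a search of both strands over 300 bases (250 before the start and 50 after it), Tnfsf11 held a TATA box match at -32, on the opposite strand. Spp1 held a TATA box match at -211 and a RUNX match on the opposite strand at -128. Among 32851 promoters of the same length, 13.6% held a TATA box match and 16.8% a RUNX match. The AP-1 motif (TGANTCA, in 7.81% of promoters), the cyclic AMP response element (TGACGTCA, 1.79%) and the NF-kB consensus (8.46%) had no match in the windows of Tnfsf11, Spp1 or Tnfrsf11a, and the E-box (CANNTG, 72.3%) had a match in each. No marked match overlapped a match of another motif. Over the same 300 bases Tnfrsf11a was rich in G and C (76.7%, with 43 CpG pairs), against 61.7% and 7 CpG pairs for Tnfsf11 and 45.3% and 3 for Spp1, and a median of 52.7% over all promoters. These matches describe the letters in the windows and no binding was measured.

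Tnfsf11 (gene 21943, chr14:78277446-78308043, minus strand, GRCm38) was close to the lower limit of detection in 3 of the 4 groups and was highest in LPC-treated skin at day 7. In vehicle day 4 mice 1 to 4 its level was 0.370, 1.23, 0.290 and 1.03 CPM, from 7, 25, 6 and 21 counts. In LPC day 4 mice it was 0.640, 0.831, 0.727 and 1.98 CPM, a range that overlaps that of vehicle. In vehicle day 7 mice it was 2.71, 1.44, 0.580 and 0.0489 CPM, the last of these from 1 count. In LPC day 7 mice it was 24.2, 7.43, 23.3 and 2.44 CPM, from 402, 148, 429 and 47 counts. Mice 1, 2 and 3 of LPC day 7 lay above every other library of the series, and mouse 4 lay just under the highest vehicle day 7 mouse, so these groups overlapped. The order of the group means was LPC day 7 (14.3 ± 11.1 CPM, SD, n = 4), vehicle day 7 (1.2 ± 1.16), LPC day 4 (1.05 ± 0.631) and vehicle day 4 (0.732 ± 0.472), and the 3 lower groups did not differ beyond their spread.

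**Figure D1:**
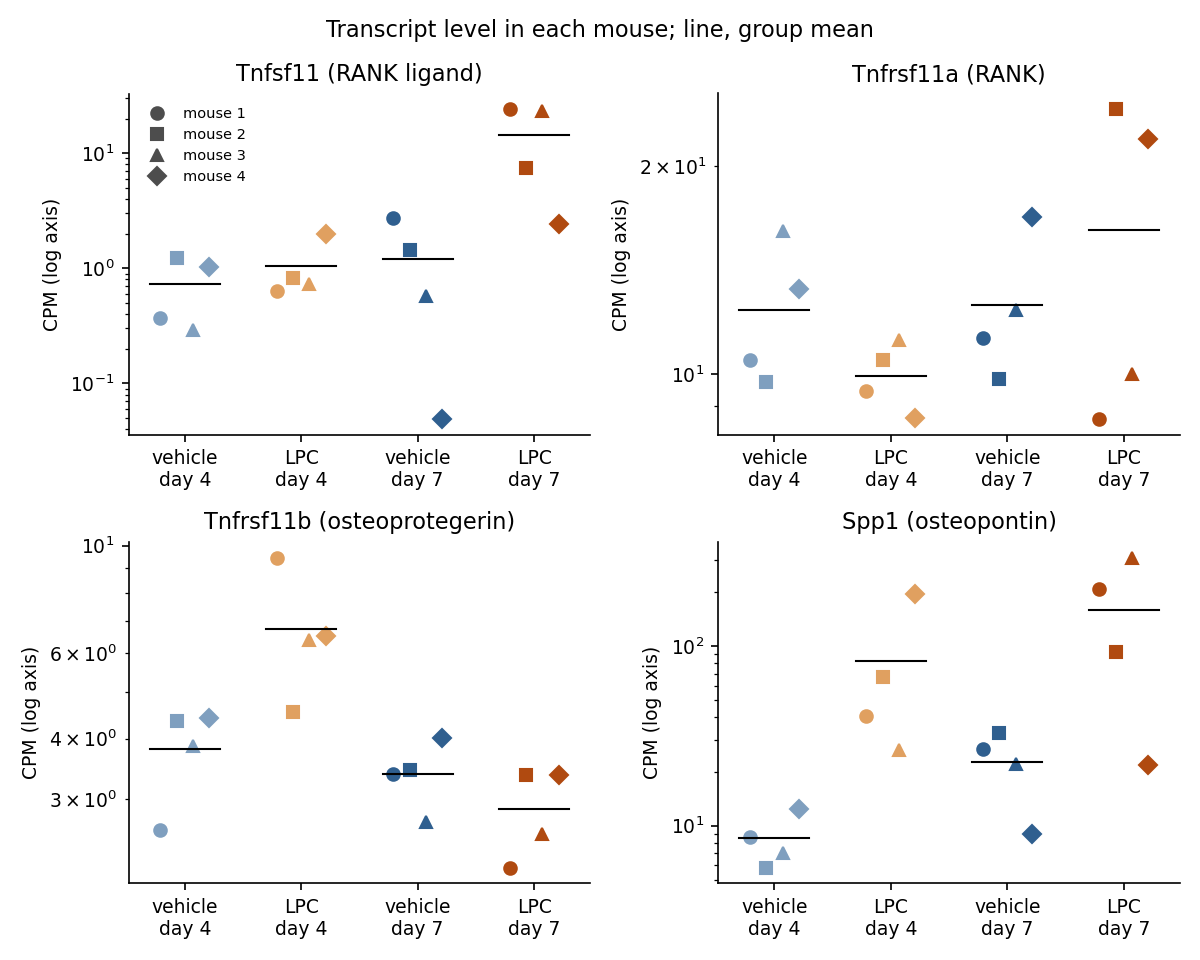
Transcript level (CPM, log axis) of the 4 genes in each of the 16 mice, with symbols for mouse numbers and a line at the mean of each group of 4. LPC day 7 mice 1 and 3 are highest for Tnfsf11 (24.2 and 23.3 CPM) and Spp1 (207 and 311 CPM), and mice 2 and 4 are highest for Tnfrsf11a (24.2 and 21.9 CPM).

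At day 4 the difference of Tnfsf11 between LPC and vehicle was 0.51 ± 0.87 (log2 fold change ± SE, edgeR quasi-likelihood test, adjusted p = 0.78), with an approximate 95% interval from -1.19 to 2.21, a wide interval that includes no difference. In that comparison 0.139% of all tested genes passed an adjusted p of 0.05. At day 7 the same difference was 3.58 ± 0.88 (12.0-fold), where 10.9% of all genes and 0 of the 4 members had groups that did not overlap, and from day 4 to day 7 it was 3.77 ± 0.89 (13.6-fold) under LPC and 0.70 ± 0.86 under vehicle. The LPC groups of the 2 days did not overlap for Tnfsf11, as held with day 7 higher for 8.85% of all genes in that comparison. The LPC effect at day 7 exceeded that at day 4 by 3.07 ± 1.21. Without LPC day 7 mice 1 and 3, the difference from vehicle at day 7 was 2.06, the difference from day 4 under LPC was 2.22 and the difference of the LPC effects was 1.53. These mice, the highest for Tnfsf11, were left out after the data were seen, so lower values had to follow. The day 7 difference was 2.59 with limma-voom and 1.92 with FPKM + 1. The comparisons within a day and across days share libraries, so they are not separate evidence.

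Per transcript length, Tnfsf11 moved up among the ligands of its superfamily. Its median in FPKM (fragments scaled to transcript length and library total) was 0.33 with vehicle and 0.35 with LPC at day 4, which placed it 12th and 11th of 18 ligand genes. At day 7 it was 0.45 with vehicle, place 12, and 6.13 with LPC, place 4. At LPC day 7 the genes above it were Tnf (10.79 FPKM), Tnfsf12, which encodes TWEAK (9.46 FPKM), and Ltb, which encodes lymphotoxin beta (8.04 FPKM). The LPC day 7 mice spanned 1.04 to 9.84 FPKM for Tnfsf11, so its place against these neighbours differed between mice.

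**Figure D2:**
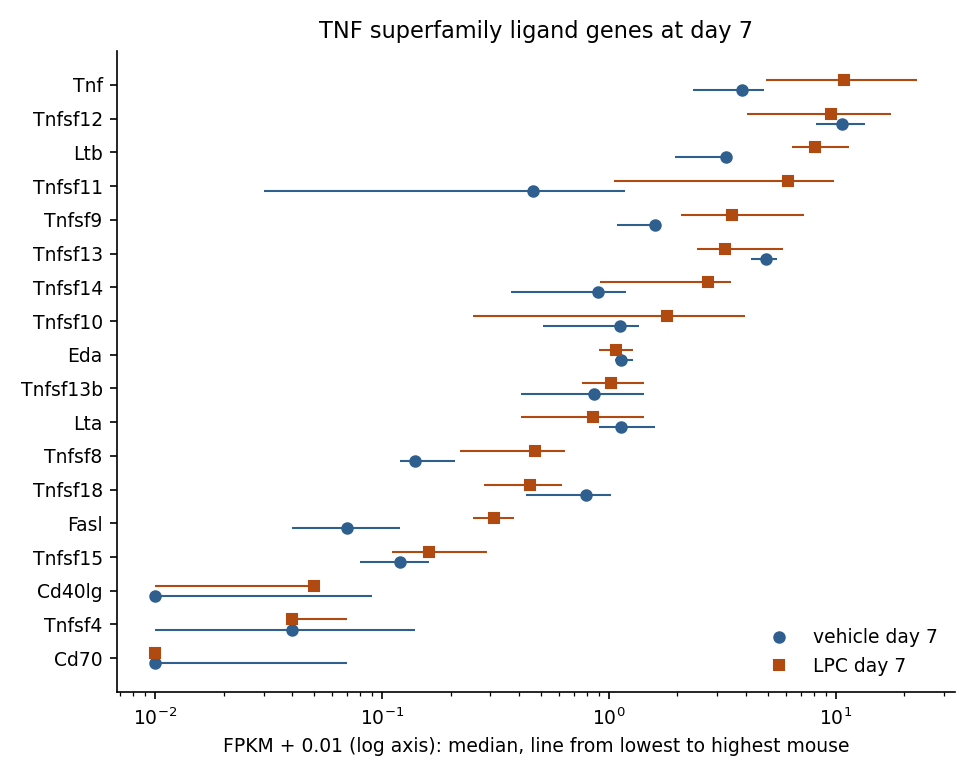
Level per transcript length (FPKM + 0.01, log axis) of 18 TNF superfamily ligand genes in day 7 skin, with the median of 4 mice as a point and a line from the lowest to the highest mouse. Tnfsf11 has a median of 0.45 FPKM with vehicle and 6.13 FPKM with LPC, and its lines are long in both groups.

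The receptor gene Tnfrsf11a (gene 21934, chr1:105780673-105849444) was at 12.4 ± 2.89 CPM with vehicle and 9.94 ± 1.13 with LPC at day 4, and at 12.6 ± 3.06 and 16.2 ± 8.03 CPM at day 7 (SD, n = 4 each). Its values were 10.5, 9.73, 16.1 and 13.3 CPM in vehicle day 4 mice and 9.45, 10.5, 11.2 and 8.65 CPM in LPC day 4 mice. Vehicle day 7 mice had 11.3, 9.84, 12.4 and 16.9 CPM. LPC day 7 mice fell into a low pair, mice 1 and 3 with 8.61 and 10.0 CPM, and a high pair, mice 2 and 4 with 24.2 and 21.9 CPM. The low pair for the receptor was the high pair for the ligand. All 4 groups overlapped. At day 4 the difference between LPC and vehicle was -0.32 ± 0.31 (edgeR adjusted p = 0.59, interval -0.92 to 0.28). At day 7 it was 0.36 ± 0.30, and -0.39 without LPC day 7 mice 2 and 4. Those mice were left out after their high values had been seen, so a lower value had to follow. From day 4 to day 7 under LPC the difference was 0.70 ± 0.31, and -0.08 without the same mice. Its expected counts were fractional in 16 of 16 libraries, which means that some of its reads were shared with other genes, whereas those of the other 3 members were whole.

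Tnfrsf11b (gene 18383, chr15:54250619-54278484), the decoy receptor, was highest in LPC-treated skin at day 4. Vehicle day 4 mice had 2.59, 4.35, 3.87 and 4.42 CPM and LPC day 4 mice had 9.45, 4.54, 6.39 and 6.51 CPM, so the lowest LPC mouse lay just above the highest vehicle mouse. Vehicle day 7 mice had 3.39, 3.45, 2.69 and 4.01 CPM and LPC day 7 mice 2.17, 3.36, 2.55 and 3.37 CPM. The order of the means was LPC day 4 (6.72 ± 2.03 CPM), vehicle day 4 (3.81 ± 0.847), vehicle day 7 (3.38 ± 0.542) and LPC day 7 (2.86 ± 0.603), and the 3 lower groups overlapped one another. At day 4 the difference between LPC and vehicle was 0.82 ± 0.26 (1.76-fold), and it did not pass the edgeR quasi-likelihood test (adjusted p = 0.11) although the groups did not overlap, as held with LPC higher for 7.42% of all genes in that comparison. DESeq2 gave 0.81 with an adjusted p of 0.038. From day 4 to day 7 under LPC the difference was -1.23 ± 0.26, a 2.34-fold lower level without overlap between the groups, as held with day 7 lower for 8.22% of all genes. At day 7 the LPC and vehicle groups differed by -0.24 ± 0.26.

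The level of the ligand relative to the decoy receptor was taken within each library from FPKM values. In vehicle day 4 mice the log2 ratio of Tnfsf11 to Tnfrsf11b was -2.40, -1.48, -3.34 and -1.75, and in LPC day 4 mice it was -3.51, -2.10, -2.78 and -1.36. The decoy transcript therefore exceeded the ligand transcript in all 8 mice of day 4. In vehicle day 7 mice the log2 ratio was 0.01, -0.92, -1.84 and -5.66. In LPC day 7 mice it was 3.79, 1.48, 3.52 and -0.13, so that in mice 1 and 3 the ligand was 13.8 and 11.5 times as high as the decoy, in mouse 2 2.78 times, and in mouse 4 about level with it at 0.913 times. Group means of the log2 ratio were -2.24 ± 0.83 with vehicle and -2.44 ± 0.92 with LPC at day 4, and -2.10 ± 2.49 and 2.16 ± 1.85 at day 7 (SD, n = 4). At day 4 the LPC and vehicle means differed by -0.20 (two-sided exact permutation test over mice, p = 0.771, where 0.0286 is the smallest p that 4 against 4 can give). At day 7 they differed by 4.27, with 1 LPC mouse below the highest vehicle mouse. This difference includes vehicle day 7 mouse 4 at -5.66, where Tnfsf11 had 1 count, so its size is uncertain.

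**Figure D3:**
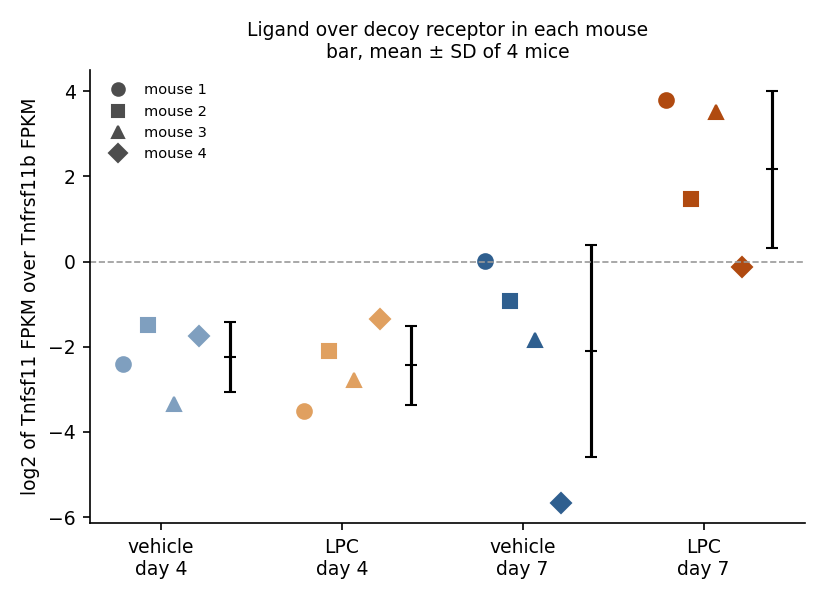
Log2 ratio of Tnfsf11 to Tnfrsf11b FPKM (0.01 added to each) in the 16 mice, with bars at the mean ± SD of each group of 4 and a dashed line at equal levels. LPC day 7 mice 1, 2 and 3 (3.79, 1.48 and 3.52) lie above every other mouse. Vehicle day 7 mouse 4 is lowest at -5.66, from 1 count of Tnfsf11.

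Spp1 (gene 20750, chr5:104435111-104441053) was higher in every LPC-treated mouse than in every vehicle mouse at day 4, and at day 7 it was higher in 3 of 4. Vehicle day 4 mice had 8.68, 5.83, 7.01 and 12.4 CPM and LPC day 4 mice 40.6, 66.9, 26.4 and 194 CPM. Mouse 4 of LPC day 4 had by far the highest value of its group and was also the highest of that group for Tnfsf11. Vehicle day 7 mice had 26.7, 32.9, 22.1 and 9.0 CPM and LPC day 7 mice 207, 92.2, 311 and 21.7 CPM. LPC day 7 mouse 4 lay below 3 of the 4 vehicle day 7 mice. The order of the means was LPC day 7 (158 ± 127 CPM), LPC day 4 (82.0 ± 76.6), vehicle day 7 (22.7 ± 10.1) and vehicle day 4 (8.47 ± 2.86). The LPC groups of the 2 days overlapped, and so did the vehicle groups, where vehicle day 7 mouse 4 was within the day 4 range.

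The day 4 difference of Spp1 was 3.27 ± 0.75, or 9.67-fold (edgeR quasi-likelihood test, adjusted p = 0.059), above the adjusted threshold of 0.05 although the groups did not overlap, as for the 7.42% of genes above. The approximate 95% interval ran from 1.80 to 4.75. The call depended on the fit: with the 2 day 4 groups alone it was 3.23 (adjusted p = 0.017) and DESeq2 gave 3.26 (adjusted p = 1.6e-04), whereas a term for the muscle marker level left 1.97 ± 0.91 (adjusted p = 0.65). Over all 18 alternatives the adjusted p ran from 1.6e-04 to 0.65, and it was below 0.05 in 2. Muscle markers summed to 3304 to 36320 CPM in vehicle day 4 and 247 to 3094 CPM in LPC day 4, so the muscle level and the treatment cannot be told apart at day 4. Keratinocyte markers were also separated by treatment (17039 to 21523 CPM in vehicle and 22079 to 26896 CPM in LPC), and macrophage markers ran from 264 to 389 CPM in vehicle and 161 to 288 CPM in LPC. Endothelial markers (164 to 257 against 108 to 181 CPM) and adipocyte markers (475 to 1771 against 207 to 739 CPM) had lower ranges with LPC, and the part of these markers in the Spp1 value was not tested. At day 7 the difference of Spp1 between LPC and vehicle was 2.80 ± 0.73 (6.96-fold), and 1.35 without LPC day 7 mice 1 and 3. These mice, the highest of their group for Spp1, were left out after the data were seen, so a lower value had to follow. The difference between day 7 and day 4 was 1.42 ± 0.71 under vehicle and 0.95 ± 0.69 under LPC. The latter was -0.54 without LPC day 7 mice 1 and 3, 0.38 without LPC day 7 mouse 3 and 1.82 without LPC day 4 mouse 4. The LPC effects of the 2 days differed by -0.48 ± 0.98, an interval from -2.39 to 1.44, and by 0.40 without LPC day 4 mouse 4, 0.20 with the muscle term and -1.95 without LPC day 7 mice 1 and 3, so its sign was not settled.

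**Figure D4:**
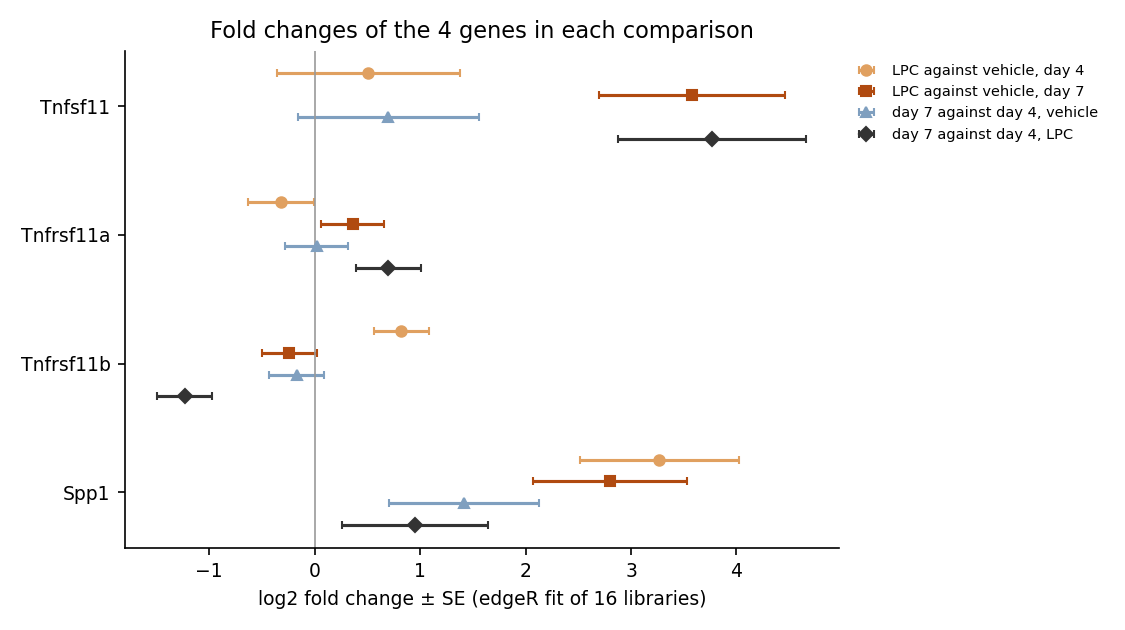
Log2 fold change ± SE of the 4 genes in 4 comparisons, from the edgeR model of all 16 libraries, with a vertical line at no difference. Spp1 has a positive LPC effect at both days (3.27 and 2.80), Tnfsf11 has a large one at day 7 (3.58) and a small one with a wide error at day 4 (0.51 ± 0.87), and Tnfrsf11b points in opposite directions at the 2 days (0.82 and -0.24).

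Per length, Spp1 ranked among the abundant transcripts of the skin in some LPC mice. Its FPKM was 205.76 in LPC day 7 mouse 3, place 349 of 17534 listed genes, and 137.79 in LPC day 4 mouse 4, place 556 of 17591. In vehicle day 4 mice it was 4.13 to 9.29 FPKM. The other genes of the same family of acidic matrix proteins of bone and teeth were near or at the limit of detection. Dmp1 was at 1.38 ± 0.336 CPM in LPC day 7, Ibsp (bone sialoprotein) summed over 4 mice to 47 counts with vehicle and 7 with LPC at day 4 and to 6 and 14 counts at day 7, and Mepe had 1 count in the series.

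The 4 genes differed in how they varied together over the 16 libraries. On log2 CPM, Tnfsf11 and Spp1 had Pearson r = 0.78 and Spearman rho = 0.68, r = 0.58 without the 2 libraries farthest from the Tnfsf11 median, and r = 0.79 after group means were removed. Tnfsf11 and Tnfrsf11a had r = -0.14, 0.19 without the 2 farthest libraries, and -0.75 after group means were removed. Tnfsf11 and Tnfrsf11b had r = -0.42, -0.06 and -0.24 in the same order. These are descriptions of 6 pairs over libraries that share group, depth and tissue composition.

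The spread within LPC day 7 ran alongside markers of other cells, and in bulk tissue fewer cells of a type and less RNA per cell cannot be told apart. Mice 1 and 3, with high Tnfsf11 and Spp1, had 11458 and 12827 CPM over the 8 neutrophil markers, against 5585 and 4472 CPM in mice 2 and 4. The same mice had low levels over the 9 macrophage markers (243 and 219.7 CPM against 1389 and 867 CPM), and mice 2 and 4 were also the ones with high Tnfrsf11a. Skeletal muscle markers summed to 926 and 308 CPM in mice 1 and 3 and to 13780 and 19444 CPM in mice 2 and 4, and cartilage markers to 67.7 and 71.1 CPM against 436 and 401 CPM. Endothelial markers (169.9 and 194 against 543 and 421 CPM) and adipocyte markers (105 and 198 against 805 and 3618 CPM) split the same way. So did fibroblast markers (2613 and 2969 against 15965 and 5146 CPM), so the split was not particular to macrophage markers. Vehicle day 7 mouse 4, lowest of its group for Tnfsf11 and Spp1, had the lowest neutrophil sum of its group (216 CPM) and the highest macrophage sum (676 CPM). In each day 4 group, by contrast, the mouse with the highest Spp1 also had the highest macrophage sum. This was mouse 4 with vehicle (389 CPM) and mouse 4 with LPC (288 CPM). Their neutrophil sums were 2480.2 CPM, the highest with vehicle, and 2219.6 CPM, below LPC day 4 mouse 2 (2742 CPM). Over all groups the neutrophil sum ran from 86.3 to 2480.2 CPM with vehicle and 435 to 2742 CPM with LPC at day 4, and from 216 to 4911 and 4472 to 12827 CPM at day 7, and 1 marker, Ngp, was at 0 in vehicle day 4 mouse 3. Such a sum is weighted to the most abundant markers. The mean log2 CPM of the 8 ran from 1.63 to 4.86 with vehicle and 3.7 to 5.32 with LPC at day 4. At day 7 it ran from 2.48 to 4.68 with vehicle and 4.94 to 6.95 with LPC. Of the 8 markers, 1 rose and 0 fell with LPC at day 7, where 2.38% of all genes rose and 1.44% fell. From day 4 to day 7 under LPC, 2 rose and 1 fell, as 6.87% and 4.13% of all genes did. The sum over T and innate lymphoid cell markers lay between 163 and 297 CPM in all 4 groups. Their mean log2 CPM did split LPC day 7, at 1.44 (mouse 1), 2.29 (mouse 2), 1.02 (mouse 3) and 2.30 (mouse 4). Elsewhere this mean ran from 1.73 to 2.13 (vehicle day 4), 1.24 to 1.78 (LPC day 4) and 1.6 to 2.57 (vehicle day 7). The part of all these markers in the values of the 4 genes was not tested. The 6 osteoblast markers stayed at 9.86 to 20.2 CPM in all libraries, with Bglap (osteocalcin) or Ibsp at 0 in some, so markers of bone-forming cells were near the limit of detection throughout.

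**Figure D5:**
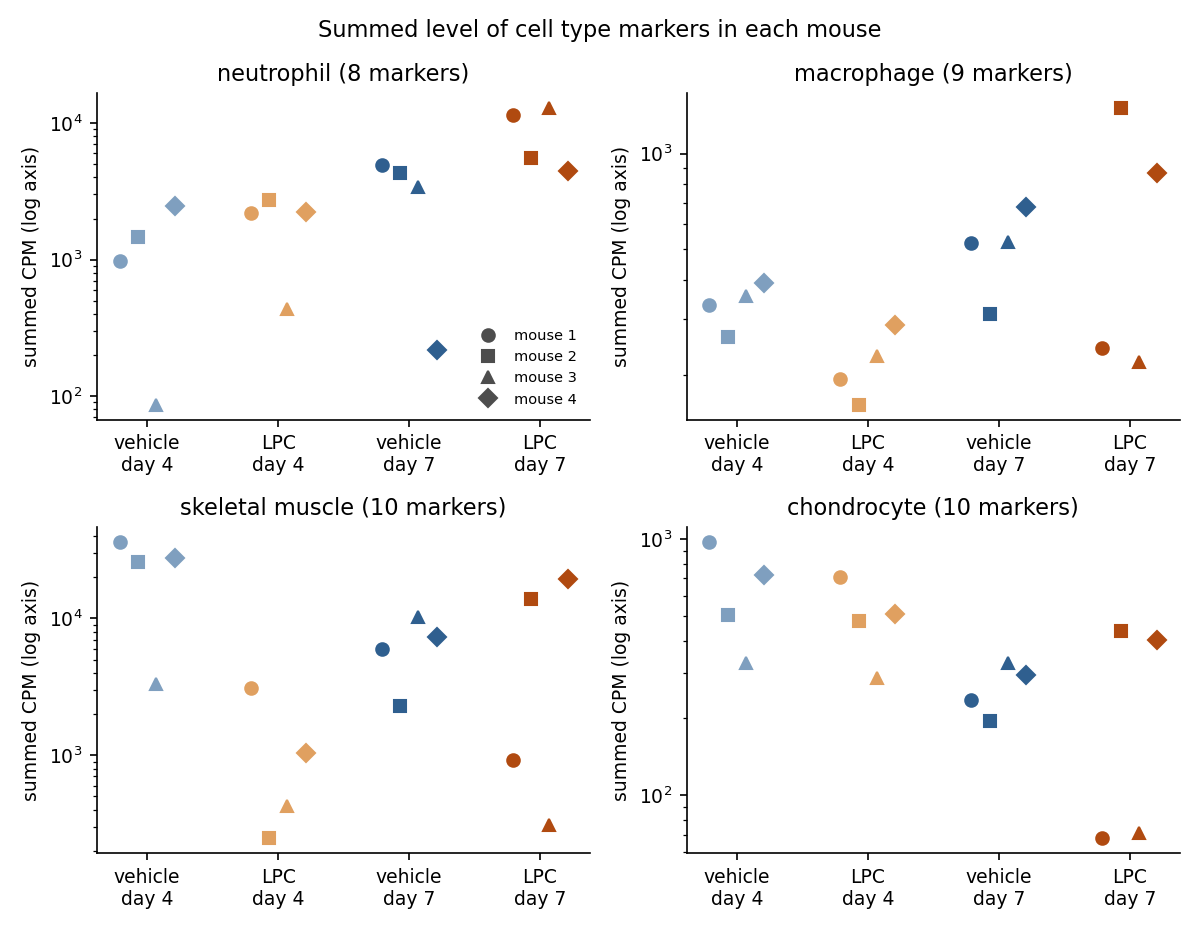
Summed level (CPM, log axis) of neutrophil, macrophage, skeletal muscle and chondrocyte markers in each of the 16 mice. In LPC day 7, mice 1 and 3 are high for neutrophil markers (11458 and 12827 CPM) and low for macrophage, muscle and chondrocyte markers, and mice 2 and 4 are the reverse.

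The genes whose pattern was most like each member were ranked over 13267 genes by Pearson r of log2 CPM over the 16 libraries. For Tnfsf11 these included Steap1 (r = 0.97, and 0.95 after group means were removed), Marcksl1 and Ctbp2 (0.94 each), and Cxcr2 (0.93). Steap1, which encodes a membrane protein, was at 9.91 ± 5.89 CPM in LPC day 7 and 1.85 to 2.63 CPM on average in the other groups, and Cxcr2, a chemokine receptor, is among the neutrophil markers used here. For Spp1 they were Tnfrsf26 (0.96, and 0.90 after group means were removed), a receptor of the TNF superfamily, Il1rl1 (0.93), the receptor of interleukin 33, and Hmga2, Oaf and Myof (0.92 each). Tnfrsf26 was at 2.17 ± 0.745 CPM with vehicle and 7.19 ± 2.44 CPM with LPC at day 4, and at 3.12 ± 1.31 and 14.0 ± 10.0 CPM at day 7. Tnfrsf11a was most like Acp2 (0.91), a lysosomal acid phosphatase, followed by Rassf2, Tcaf1 and Sumf1 (0.89 each) and P2rx4 (0.88). For Acp2 this was 0.75 without the 2 libraries farthest from the Tnfrsf11a median, and Acp2 had the same high pair of mice in LPC day 7 (79.8 and 67.8 CPM in mice 2 and 4 against 25.5 and 26.3 CPM in mice 1 and 3). Tnfrsf11b was most like Glis1 (0.86), Ano6 (0.83), Trim24 (0.82), Afmid (0.80) and Stard13 (0.80). These genes were chosen for the height of the correlation.

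The lists of pathway and family genes below were, like the members, chosen with earlier results of these data known. Their counts of called genes and adjusted p values therefore describe these libraries and are not independent evidence. Genes that relay the RANK signal had enough counts to be tested in full, and most did not pass the test. At day 7, 3 of 21 rose and 0 fell with LPC, where 3.83% of all genes were called (2.38% rose and 1.44% fell), and the median of the 21 was 0.13 against 0.02 for all genes. Those that rose were Fos (3.24 ± 0.52, edgeR adjusted p = 0.011) and Jun (1.88 ± 0.37, adjusted p = 0.020), which encode AP-1 subunits, and Nfkb2 (0.64 ± 0.14, adjusted p = 0.029), the precursor of an NF-kB subunit of the alternative pathway. All 3 also serve many other receptors. Traf6, the adaptor bound by RANK, was at 63.8 ± 10.1 CPM with vehicle and 67.8 ± 15.1 CPM with LPC, and Nfatc1 at 51.1 ± 8.83 and 39.5 ± 13.5 CPM. At day 4, where 0.139% of all tested genes were called, none of the 21 was. Fos and Jun had 2.18 ± 0.50 (edgeR adjusted p = 0.059) and 1.45 ± 0.37 (edgeR adjusted p = 0.067) there.

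Of 20 osteoclast co-receptors and effectors, 15 were tested, and 4 rose and 0 fell with LPC at day 7, where 2.38% of all genes rose and 1.44% fell (median 0.44 against 0.02 for all genes). They were Tyrobp (1.45 ± 0.32, edgeR adjusted p = 0.027) and Fcer1g (1.47 ± 0.36, adjusted p = 0.039), signalling adaptors of myeloid cells, Itgb3 (0.89 ± 0.20, adjusted p = 0.029), the beta 3 integrin chain, and Mmp9 (2.54 ± 0.67, adjusted p = 0.048), a gelatinase that neutrophils also make. From day 4 to day 7 under LPC, where 6.87% of all genes rose and 4.13% fell, 4 of the 15 rose: Fcer1g, Tyrobp, Sirpb1a (3.26 ± 0.75, adjusted p = 0.018) and Itgb3. Of the other genes on this list, Acp5 and Ctsk were not called in either comparison. Acp5, the tartrate-resistant acid phosphatase, was at 73.1 ± 10.6 CPM with vehicle and 100.4 ± 21 CPM with LPC at day 7 (adjusted p = 0.12), and Ctsk, cathepsin K, at 57.7 ± 13.9 and 74.5 ± 27.2 CPM (adjusted p = 0.49). Calcr, the calcitonin receptor, had too few counts to be tested. It had 7, 7, 8 and 4 counts in LPC day 7 mice and 0 to 2 counts in each of the other 12 mice, so the LPC day 7 range lay above the rest, at levels where counting error is large. This was not particular to Calcr. Fasl, a TNF superfamily ligand gene that also had too few counts, had 9 to 14 counts in LPC day 7 mice and 0 to 4 in the others. The share of untested genes with such a range was not computed. Dcstamp, needed for the fusion of osteoclast precursors, summed over 4 mice to 22 counts with vehicle and 37 with LPC at day 4 and to 25 and 17 counts at day 7. The other untested genes of this list did not share 1 direction at day 7. Ocstamp was higher with LPC (15 counts with vehicle and 35 with LPC), and Oscar (18 and 8) and Siglec15 (17 and 14) were lower.

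Genes known to induce RANK ligand or to shed it from the cell surface had the highest median of the 8 pathway and family lists at day 7, at 1.35 over 18 tested of 19, against 0.02 for all genes. With LPC, 3 rose and 0 fell, where 2.38% of all genes rose and 1.44% fell. They were Lif (3.18 ± 0.79, edgeR adjusted p = 0.040) and Il11 (3.12 ± 0.80, adjusted p = 0.046), cytokines of the interleukin 6 family, and Mmp14 (0.74 ± 0.17, adjusted p = 0.029), a membrane-bound protease. Il6 was at 2.58 ± 2.42 CPM with vehicle and 54.0 ± 57.0 CPM with LPC (4.38 ± 1.20, adjusted p = 0.055) and Tnf at 6.10 ± 1.88 and 22.6 ± 17.4 CPM (1.89 ± 0.51, adjusted p = 0.054). Ptgs2, the inducible cyclooxygenase, was at 28.7 ± 23.5 and 468 ± 477 CPM at day 7 (4.03 ± 1.07, adjusted p = 0.050, not below the threshold) and at 25.7 ± 20.1 and 291 ± 184 CPM at day 4 (3.50 ± 1.05, adjusted p = 0.092). From day 4 to day 7 under LPC, 4 rose, where 6.87% of all genes did: Adam19 (1.26 ± 0.26), Adam10 (0.71 ± 0.16), Mmp14 (0.60 ± 0.17) and Il17a (adjusted p = 0.045), the last from 0.0511 ± 0.0591 to 2.56 ± 3.13 CPM.

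Among the 15 tested receptors and processing enzymes of osteopontin, 3 rose and 0 fell with LPC at day 7, where 2.38% of all genes rose and 1.44% fell (median 0.51 against 0.02). Besides Itgb3 and Mmp9, which this list shares with that of osteoclast co-receptors and effectors, this was Itga5, the alpha 5 integrin chain (1.10 ± 0.26, edgeR adjusted p = 0.031). Cd44, a receptor of osteopontin on many cells, was at 391 ± 130.3 CPM with vehicle and 590.1 ± 278 CPM with LPC (adjusted p = 0.42). At day 4, where 0.139% of all tested genes were called, none of the 15 was. Mmp3, stromelysin, had the smallest p there, with 52.9 ± 17 CPM in vehicle and 726 ± 237 CPM in LPC (3.78 ± 0.87, edgeR adjusted p = 0.059). From day 4 to day 7 under LPC, 2 of the 15 rose and 0 fell, where 6.87% of all genes rose and 4.13% fell. They were Itgb3 (0.75 ± 0.20, edgeR adjusted p = 0.030) and Tgm2, a transglutaminase that cross-links osteopontin (1.40 ± 0.43, edgeR adjusted p = 0.049). Tgm2 went from 75.8 ± 32.3 to 201 ± 103 CPM, against 221 ± 101 CPM in vehicle day 4 and 83.0 ± 22.7 CPM in vehicle day 7.

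The alternative partners of the ligand and its decoy were few. Of 5 tested, none was called between LPC and vehicle at either day, where 0.139% of all tested genes were called at day 4 and 3.83% at day 7. Lgr4, another receptor of RANK ligand, was at 45.0 ± 7.48 CPM with vehicle and 31.1 ± 10.6 CPM with LPC at day 7 (edgeR adjusted p = 0.19). Tnfsf10, which encodes TRAIL, another ligand of osteoprotegerin, was at 1.94 ± 0.715 CPM in LPC day 4 and rose to 10.1 ± 9.32 CPM in LPC day 7 (2.37 ± 0.67, edgeR adjusted p = 0.037). Of all genes, 6.87% rose in the same comparison.

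Within the TNF superfamily, of 13 tested ligands other than Tnfsf11, Ltb rose with LPC at day 7 (1.62 ± 0.29, edgeR adjusted p = 0.013) and none fell (median 0.77 against 0.02), where 2.38% of all genes rose and 1.44% fell. Of 21 tested receptors on the list, which leaves out the members, Tnfrsf1b (1.67 ± 0.35, adjusted p = 0.023), the type 2 TNF receptor, and Cd40 (1.18 ± 0.31, adjusted p = 0.049) rose. Tnfrsf19 (-1.31 ± 0.35, adjusted p = 0.048) fell. From day 4 to day 7 under LPC, where 6.87% of all genes rose and 4.13% fell, 5 ligands rose, among them Tnfsf14 (1.84 ± 0.48) and Tnfsf13 (1.00 ± 0.27), and 4 receptors rose and Tnfrsf19 fell. At day 4, where 0.139% of all tested genes were called, none of the listed genes of either family was. Among them Tnfrsf9, the 4-1BB receptor, had the smallest p (2.45 ± 0.55, adjusted p = 0.058). The receptor list does not hold the whole family, and Tnfrsf26, described above, was not on it. Per length, Tnfrsf11a ranked between 13th and 16th of 25 receptor genes in the 4 groups, and Tnfrsf11b ranked 14th in LPC day 4 and 19th or 20th in the others.

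Over the day course with vehicle, no gene of any of these lists was called. In that comparison edgeR called 0 of 15782 genes, 2050 had an unadjusted p under 0.05, DESeq2 called 223 and limma-voom with sample weights 2086. The 4 members differed there by 0.70 ± 0.86 for Tnfsf11, 0.02 ± 0.30 for Tnfrsf11a, -0.17 ± 0.26 for Tnfrsf11b and 1.42 ± 0.71 for Spp1, and all 4 overlapped between the days, where 6.21% of all genes did not.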

How the data were processed

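Ear skin RNA of 16 mice was extracted with TRIpure and sequenced on a BGISEQ-500, and reads were aligned with Bowtie2 to GRCm38 and quantified with RSEM, per the labels' protocols. No version, annotation or strand setting is given in the sources used here. The deposited files list an expected count and an FPKM value per gene, made by the authors with RSEM. Where a library lists no row for a gene, 0 was used. Groups follow the sample titles, whose days (4 and 7) differ from those in the file names.

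Expected counts were rounded, filtered with filterByExpr (15782 genes kept) and fitted with edgeR 4.0.16 (R 4.3.3), TMM factors and a mean per group, over all 16 libraries (12 residual degrees of freedom, biological coefficient of variation 35%). Calls require an adjusted p (Benjamini-Hochberg over all 15782) below 0.05. Fold changes are log2 values ± SE, where the edgeR SE is the absolute log2 fold change divided by the square root of the F statistic. Intervals span 1.96 SE, a normal approximation that is somewhat too narrow for 16 libraries. CPM uses TMM-scaled totals, and log2 CPM a prior count of 2. Intervals and errors reflect these mice, and a listed 0 still allows up to 3 counts. Libraries of a group all differed by more than sampling noise (chi-square per gene at least 16).

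The members, lists and the naming rule were chosen with earlier results of these data known. The text names the 4 members, up to 4 called genes per list and comparison by smallest p (otherwise up to 2), a panel of 15 pathway genes, and the 5 genes most correlated with each member, of which 1 is not reported here. Dcstamp, Ocstamp, Oscar, Siglec15, Fasl, Mepe, Cxcr2, Bglap, Ngp and Tnfsf12 were named after their values were seen. Alternatives were other normalizations, filters, DESeq2 1.42.0, limma-voom (limma 3.58.1), FPKM with 0.1 or 1 added, a muscle covariate, a replicate block, the groups of a comparison alone, and leaving out mice. Promoters and gene positions are from RefSeq (GRCm38.p6).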

Additional observations from a re-analysis of the deposited data

How the results depend on the processing

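At day 4 a muscle covariate reversed Tnfsf11 (-0.88) and Tnfrsf11a (0.15). Leaving out 1 mouse gave the day 4 log2 ratio a range of -0.56 to 0.16, positive without vehicle day 4 mouse 2 (0.06) or LPC day 4 mouse 1 (0.16). DESeq2 called Tnfrsf11b (0.81) and Spp1 (3.26) at day 4, and the 2 groups alone called Spp1 (3.23). Leaving out 1 mouse gave Spp1 2.40 to 3.57 at day 4. Without LPC day 7 mice 1 and 3 (chosen after seeing the data), Spp1 at day 7 was 1.35, Tnfsf11 2.06 at day 7 and 2.22 over days under LPC, Spp1 -0.54 over days under LPC, and the differences between days were 1.53 for Tnfsf11, 1.2 for Tnfrsf11a and -1.95 for Spp1. Without mice 2 and 4, also chosen after seeing the data, Tnfrsf11a was -0.39 at day 7 and -0.08 over days under LPC. Its difference between days was -0.08. With FPKM + 1, Tnfsf11 and Tnfrsf11b over days under LPC were 1.93 and -0.79, and the Tnfrsf11b difference between days was -0.67. The cause was not tested.

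Genes called at day 4 (22) were 8 without a filter, 0 with the muscle covariate, 1333 with the 2 groups alone, 1606 with voom, 42 with FPKM + 1, 1104 with DESeq2 and 0 to 683 without 1 mouse, 683 without vehicle day 4 mouse 3. At day 7 (604) they were 1181 with the covariate, 45 with the 2 groups alone, 3376 without LPC mice 2 and 4, 210 with voom, 1448 with DESeq2 and 111 to 697 without 1 mouse. Over days they were 2086 with voom, 223 with DESeq2 and 0 to 205 without 1 mouse under vehicle (0), and 992 with the covariate, 1100 with the 2 groups alone, 4330 without LPC mice 1 and 3, 3073 with DESeq2 and 518 to 2207 without 1 mouse under LPC (1736). FPKM + 0.1 moved the median of all genes at day 7 from 0.02 to -0.12.

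The labels do not pair mice by number. Same-numbered mice had correlations of 0.0994 to 0.539 at day 4 (3 of 4 best with their own number) and -0.596 to 0.148 at day 7. With a replicate block, 2 genes were called at day 4, 351 at day 7 and 901 over days under LPC; Spp1 at day 4 was 3.25 (adjusted p = 0.11, edgeR), and the ratio differed by -0.20 (exact p = 0.625).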
